A study of Mus musculus with 8 samples.

Results

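C13 is a sorted subset of common myeloid progenitors, the marrow cells from which platelet-forming megakaryocytes, red cells, granulocytes and monocytes arise. Its cells were KIT+ CD16/32- CD34dim and carried neither CD9, a tetraspanin, nor CD41, an integrin subunit of platelets and their precursors. Open chromatin was mapped by ATAC-seq, in which a transposase cuts accessible DNA, in 2 C13 libraries of 8 libraries in all. The other 6 libraries were 2 each of the populations C2, C18 and C10, which were likewise KIT+ and CD16/32- but carried both CD41 and CD9. C2 was CD34bright, while C18 and C10 were CD34dim and were told apart by CD48, a SLAM family receptor, dim on C18 and bright on C10. Marrow of wild-type C57BL/6 mice was the source of all 4 populations. The names are those of the sample titles, since the series text lists partly different clusters. Whether both libraries of a population stem from different animals is not stated in the labels, so p-values reflect the spread among these libraries alone, and that spread may be technical.

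The peaks of each library were ranked by the signal that the peak caller F-Seq gave them, with rank 1 the strongest of 100000. A gene locus was a protein-coding gene body with 10 kb on each side, and it took the rank of its best peak. Of 21887 loci, the 18458 with a peak in at least 2 libraries were compared. A locus was called above where both C13 libraries ranked it higher than each of the other 6, and below where both ranked it lower. By this rule 2194 loci (11.9%) were above and 3551 (19.2%) were below. In a bulk library, fewer cells with an open locus and a locus less open in each cell cannot be told apart.

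Accessible DNA marks promoters, where transcription starts, and distal elements such as enhancers, which lie within or between genes. Promoters of widely used genes are open in most cells, while distal elements differ more between lineages. In blood cells many such elements are bound by GATA factors, which act in red cell, megakaryocyte and mast cell genes, by PU.1 in myeloid and lymphoid genes, by RUNX factors and by interferon regulatory factors (IRF). Dendritic cells, which present antigen, can arise from both myeloid and lymphoid progenitors and depend on the receptor FLT3.

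At some loci C13 differed from the others at the gene start itself, and the bases before these starts are shown because the peak covers all of them. They are the 5 loci above and the 5 below with the largest gap between C13 and the other libraries among those whose best peak had its summit within 250 bases of a start. They were chosen after their values were seen. A start with another gene's start inside the window was left out. Each sequence is the 250 bases before the gene start from RefSeq (GRCm38.p6), 5′ to 3′ on the strand of the gene. Capitals mark matches on either strand to 4 short motifs. The letters searched were AGATAA for the GATA factors, with TGATAA as a further form, and GAGGAAG for PU.1. Those for the RUNX factors were TGTGGT. For the IRF family they were GAAA, any 2 bases and the same GAAA again. For the loci above, the windows are chr1:193201547-193201796 (minus strand) for Traf3ip3, chr3:136326067-136326316 (minus) for Bank1, chr9:50554450-50554699 (plus) for Il18, chr9:106222348-106222597 (plus) for Tlr9 and chr14:59341331-59341580 (minus) for Phf11b.
Traf3ip3: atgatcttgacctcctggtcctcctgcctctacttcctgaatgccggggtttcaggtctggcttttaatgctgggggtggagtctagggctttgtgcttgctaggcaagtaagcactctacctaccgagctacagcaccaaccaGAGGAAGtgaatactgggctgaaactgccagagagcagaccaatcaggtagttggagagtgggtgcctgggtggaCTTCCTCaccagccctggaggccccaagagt
Bank1: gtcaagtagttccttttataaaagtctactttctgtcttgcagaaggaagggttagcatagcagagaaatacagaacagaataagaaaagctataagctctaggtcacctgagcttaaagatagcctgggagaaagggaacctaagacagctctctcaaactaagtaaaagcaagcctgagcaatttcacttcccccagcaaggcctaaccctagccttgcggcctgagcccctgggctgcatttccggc
Il18: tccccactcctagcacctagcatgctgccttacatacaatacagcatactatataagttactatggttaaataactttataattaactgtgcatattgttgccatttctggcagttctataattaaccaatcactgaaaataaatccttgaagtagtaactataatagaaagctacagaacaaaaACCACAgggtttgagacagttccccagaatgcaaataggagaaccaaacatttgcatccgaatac
Tlr9: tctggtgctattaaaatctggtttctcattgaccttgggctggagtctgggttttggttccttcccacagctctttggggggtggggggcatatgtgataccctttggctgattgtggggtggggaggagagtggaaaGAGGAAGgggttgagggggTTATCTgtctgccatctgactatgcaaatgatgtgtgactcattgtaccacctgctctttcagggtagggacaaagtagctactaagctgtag
Phf11b: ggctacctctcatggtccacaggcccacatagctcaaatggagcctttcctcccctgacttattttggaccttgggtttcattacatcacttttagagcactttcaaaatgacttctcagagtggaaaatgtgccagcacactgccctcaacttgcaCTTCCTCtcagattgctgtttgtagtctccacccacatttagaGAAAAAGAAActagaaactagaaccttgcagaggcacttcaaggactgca

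Traf3ip3 encodes an adaptor needed for lymphocyte development, Bank1 a scaffold protein of B cell receptor signalling, Il18 a cytokine, Tlr9 the endosomal receptor for microbial DNA and Phf11b a PHD finger protein. At Traf3ip3 the best peak ranked 31 and 22 in C13, 376 and 334 in C10, 396 and 278 in C2, and 564 and 315 in C18. The Bank1 peak ranked 373 and 156 in C13, 2017 and 1674 in C10, 3265 and 3902 in C2, and 5571 and 9836 in C18. In both cases the C13 libraries stood apart at the strong end, and C10 came next for Bank1 but not for Traf3ip3, where C2 replicate 2 was nearest. For Tlr9 the ranks were 2772 and 3268 in C13 against 12237 to 31029 in the other 6 libraries. Il18 ranked 4868 and 4260 in C13 and 18481 to 62304 elsewhere. Phf11b ranked 6767 and 6337 in C13 and 25033 to 44221 elsewhere. All 8 libraries had a peak at each of the 5 starts, but in some of the other 6 libraries another peak of the Traf3ip3, Il18 or Tlr9 locus ranked higher. The Traf3ip3 window held 2 PU.1 matches, that of Phf11b 1 PU.1 and 1 IRF match, that of Tlr9 1 PU.1 and 1 GATA match, that of Il18 1 RUNX match and that of Bank1 none.

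The 5 gene starts shown for loci below are those of Mylk3, a myosin light chain kinase of heart muscle, Nqo1, a quinone reductase, Tcaf1, a regulator of TRP channels, Kel, the Kell blood group protein of red cells, and Crlf3, a cytokine receptor-like factor. Their windows are chr8:85381042-85381291, chr8:107403206-107403455, chr6:42693101-42693350, chr6:41704326-41704575 and chr11:80080992-80081241, all on the minus strand.
Mylk3: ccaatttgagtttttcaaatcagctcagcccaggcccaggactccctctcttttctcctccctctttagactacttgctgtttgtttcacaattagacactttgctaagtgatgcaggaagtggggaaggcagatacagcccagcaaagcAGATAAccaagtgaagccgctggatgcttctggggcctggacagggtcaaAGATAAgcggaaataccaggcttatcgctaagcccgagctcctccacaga
Nqo1: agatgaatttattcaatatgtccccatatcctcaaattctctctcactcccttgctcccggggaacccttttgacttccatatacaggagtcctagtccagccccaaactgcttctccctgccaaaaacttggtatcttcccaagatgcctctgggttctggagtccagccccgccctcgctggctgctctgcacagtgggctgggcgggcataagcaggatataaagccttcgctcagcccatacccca
Tcaf1: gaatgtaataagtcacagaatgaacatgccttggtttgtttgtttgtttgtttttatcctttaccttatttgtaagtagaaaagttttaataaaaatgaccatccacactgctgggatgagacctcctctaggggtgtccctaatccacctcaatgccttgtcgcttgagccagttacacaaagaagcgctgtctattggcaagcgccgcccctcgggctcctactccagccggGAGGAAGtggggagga
Kel: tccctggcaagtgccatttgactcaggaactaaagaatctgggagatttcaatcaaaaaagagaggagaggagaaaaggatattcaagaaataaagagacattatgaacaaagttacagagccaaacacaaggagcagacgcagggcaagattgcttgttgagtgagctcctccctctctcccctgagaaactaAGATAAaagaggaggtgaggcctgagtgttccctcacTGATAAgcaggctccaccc
Crlf3: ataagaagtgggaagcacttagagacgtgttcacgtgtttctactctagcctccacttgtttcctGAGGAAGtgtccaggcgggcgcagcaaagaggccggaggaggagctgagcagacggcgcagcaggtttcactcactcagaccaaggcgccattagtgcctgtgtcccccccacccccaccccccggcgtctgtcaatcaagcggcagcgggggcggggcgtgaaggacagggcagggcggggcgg

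Kel ranked 74708 and 90912 in C13, 12054 and 15191 in C10, 23390 and 19869 in C2, and 14143 and 7471 in C18. Mylk3 ranked 52938 and 50725 in C13 and 4197 to 11210 in the other 6 libraries. For Nqo1 the C13 ranks were 26121 and 28886 against 2680 to 6614 elsewhere. Tcaf1 ranked 41189 and 46222 in C13 and 5609 to 11850 elsewhere, and Crlf3 17831 and 15779 against 2489 to 5224. At Kel and Mylk3 neither C13 library had a peak at the start itself, all 6 other libraries had one, and the C13 ranks are those of another peak of the locus. At Nqo1, Tcaf1 and Crlf3 both C13 libraries had the start peak, at the ranks given. The Kel and Mylk3 windows held 2 GATA matches each, those of Tcaf1 and Crlf3 1 PU.1 match each and that of Nqo1 none.

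Over all loci with a known start, the shares of windows with a match were counted for the loci whose best peak lay within 1 kb of the start. Loci above had 318 such windows in 242 genes, and 20.8% of them held the PU.1 motif, 17.9% the RUNX motif, 9.12% the IRF motif and 11.3% the GATA motif. Loci whose groups overlapped, chosen by the same peak of C13 replicate 1, had 5497 windows with shares of 11.3%, 10.7%, 2.42% and 8.91% in the same order. Windows of loci below, chosen by the peak of C10 replicate 1, held the motifs in 9.56%, 10.2%, 3.19% and 10.6% of 1758 cases. Among all 18312 windows of tested loci the shares were 10.9%, 11.6%, 2.83% and 11.8%. A match describes the letters of a window and is not evidence of binding.

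The balance of calls above and below moved with the scale, because all loci together ranked lower in C13, with a median score difference of -0.35. The score is the log2 of the list length over the rank, so that a score 1 unit higher means a rank number 2 times smaller, and a locus without a peak has score 0. After each library's scores were scaled to a common median, 3216 loci (17.4%) were above and 2047 (11.1%) below. All 2194 loci above were still above on that scale, and 2034 of the 3551 below were still below. For the other populations the same rule gave 980 loci (5.31%) above and 436 (2.36%) below for C2, 4618 (25%) and 2110 (11.4%) for C18, and 1263 (6.84%) and 1376 (7.45%) for C10.

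The makeup of the strongest peaks also differed between the populations. Among the 10000 strongest, 36.2% and 34.9% lay within 1 kb of a gene start in C13, 40.1% and 39.4% in C10, 49.5% and 50.4% in C2, and 53.3% and 55.5% in C18. C13 thus had the lowest share at starts and C18 the highest, with no overlap between the populations. The part of this difference in the counts was not tested, but with peaks away from starts ranked alone 2767 loci were above and 3113 below, and with peaks at starts ranked alone 1613 and 1043. A fit with limma, in 4 group means over all tested loci, called 2293 loci higher (12.4%) and 5453 lower (29.5%) in C13 than the mean of the other 3 populations at a Benjamini-Hochberg adjusted p of 0.05. The limma calls held 1912 of the loci above and 2946 of those below, on the same ranks that chose them. These counts rest on both C13 libraries and on the 4 group means: they were 1423 and 2139 without C13 replicate 1, 1264 and 2675 without C13 replicate 2, and 910 and 306 with the other 6 libraries taken as a single group.

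**Figure D1:**
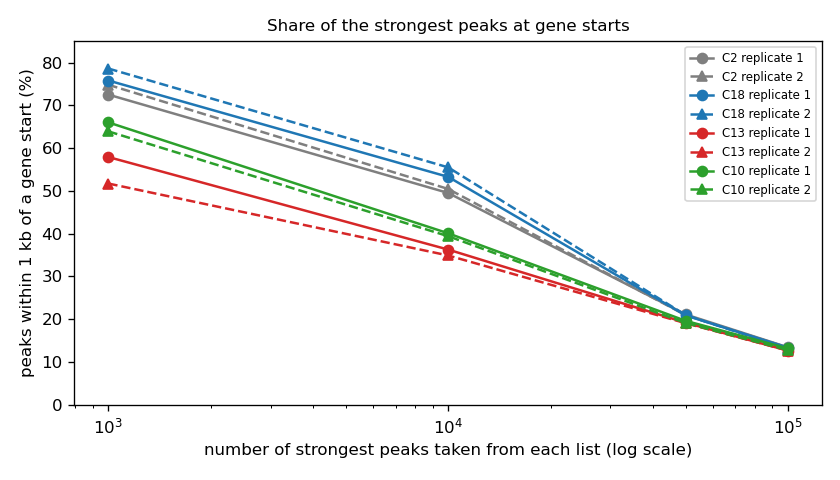
Share of the strongest F-Seq peaks within 1 kb of a gene start (vertical axis, percent) against the number of strongest peaks taken from each library (horizontal log axis). Each line is 1 library; the C13 lines are lowest at 1000 peaks (57.9% and 51.7%) and at 10000 peaks.

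At the edge of the rule, Morf4l1b was just above, with ranks of 38161 and 30176 in C13 and 38184 in C10 replicate 2, and Camkk1 just missed, with rank 3321 both in C13 replicate 1 and in C18 replicate 1. On the other side Suds3 was just below (29479 and 30636 in C13, 29467 in C10 replicate 1). The median gap between C13 and the nearest other library was 0.53 for loci above and 0.24 for loci below, so many calls were narrow. The nearest other library belonged to C10 at 49.5% of the loci above and 62.2% of those below. Over all tested loci this share was 50.2%, and at loci whose groups overlapped it was 47%. The share for loci above was thus close to that over all loci, and the share for loci below was higher.

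The loci above with the widest gaps were led by Ctso, which encodes the lysosomal protease cathepsin O. Its best peak ranked 99 and 32 in C13, 3521 and 3124 in C10, 2624 and 3370 in C2, and 14053 and 14625 in C18, a score difference of 6.53 ± 0.387 (SE; limma adjusted p = 6.75e-06). Both C13 libraries thus held a peak of the locus among their 100 strongest, and no other library had one above rank 2624. The element at chr3:81924844-81927377 (mm10) lies outside the gene, with its summit 6580 bases from it, and with gene bodies alone the Ctso difference turned to -0.40. The element had a peak in all 8 libraries, at ranks 3521 and 3124 in C10, 11019 and 11137 in C2, and 24051 and 55113 in C18. The better C2 and C18 ranks given first came from other peaks, 12 to 30 bases from a start of the gene.

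Mtmr7, a phosphatase of the myotubularin family, ranked 66 and 89 in C13, 1743 and 2247 in C10, 3253 and 5436 in C2, and 7159 and 9278 in C18, from a peak inside the gene at chr8:40583255-40585561. Mogat1, a monoacylglycerol acyltransferase, ranked 93 and 72 in C13 and 1498 to 13330 elsewhere, also from within the gene. The Acss1 locus, with a mitochondrial acetyl-CoA synthetase, ranked 18 and 15 in C13 and 331 to 2081 elsewhere, through a peak outside the gene that the Vsx1 locus shares. In all 3 loci C10 was nearer to C13 than C18 was. Rasgrp1, a Ras activator of lymphocytes, ranked 788 and 1072 in C13 and 15921 to 28193 in the other 6 libraries. Zfp423, a zinc finger protein that binds EBF1, ranked 1213 and 1508 in C13 and 22056 to 42477 elsewhere. The elements of both lie within the genes.

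Of the other loci in this group, Tmem108, Ror1, Tep1, Cspg4b and Pfpl ranked 94 to 1002 in the C13 libraries and 2498 to 71298 in the others. Ror1 encodes a receptor for WNT5A, Tep1 a protein of the telomerase complex and Pfpl a pore-forming protein-like product. The remaining peak, at chr7:55783912-55785362, lies between Tubgcp5, of the gamma-tubulin complex, and Siglech, a sialic acid receptor of plasmacytoid dendritic cells, with its summit 5315 bases from Siglech. At the Siglech locus it ranked 131 and 101 in C13, 1468 and 1670 in C10, 3294 and 2772 in C2, and 21091 and 17718 in C18. The C13 libraries were apart from all others here, and the C18 libraries were apart at the weak end.

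**Figure D2:**
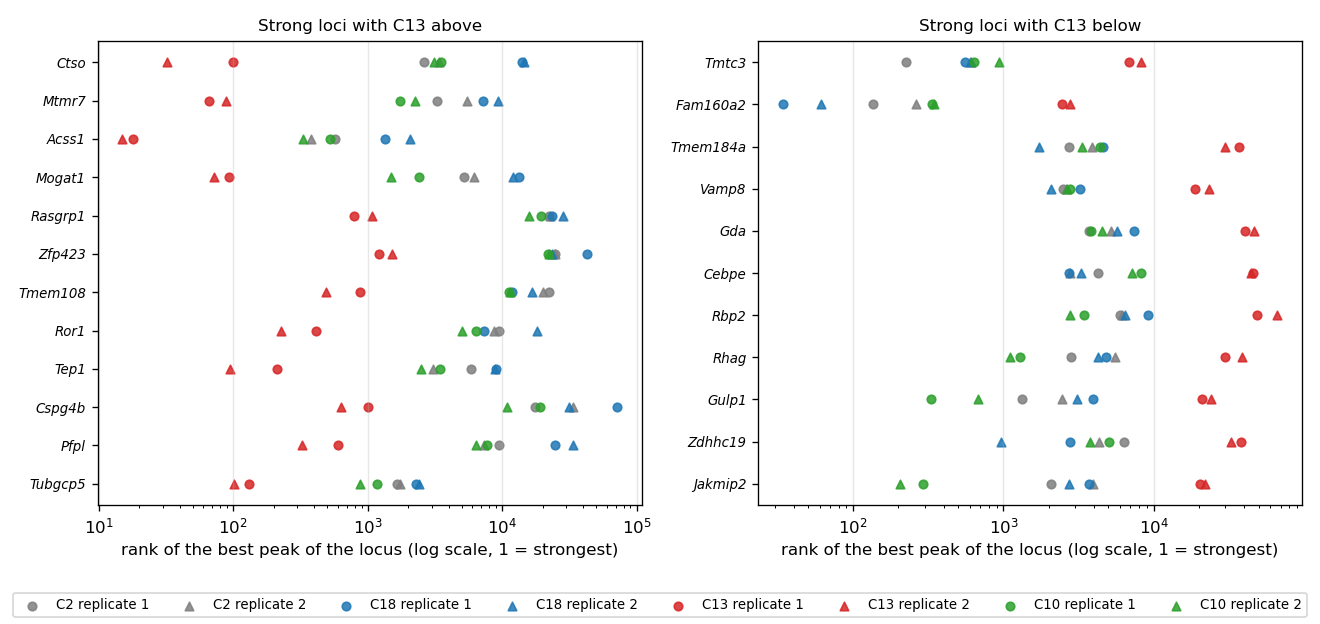
Rank of the best peak (horizontal log axis, 1 = strongest) in each library for the 12 loci above and 11 of the 12 below with the largest gaps among loci that rank within 10000 in every library of the higher side. Colours are populations and symbols replicates; at Ctso the C13 libraries sit at 99 and 32 and the other 6 at 2624 or weaker, and at Rhag the C13 libraries sit at 29854 and 38817.

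Among the loci below with the widest gaps, several belong to red cells and granulocytes. Rhag, the Rh-associated glycoprotein of the red cell membrane, ranked 29854 and 38817 in C13, 1279 and 1101 in C10, 2801 and 5572 in C2, and 4829 and 4280 in C18 (score difference -3.62 ± 0.298, limma adjusted p = 2.83e-05). The peak that led in C10, at chr17:40806137-40807495, lies outside the gene, 4258 bases from it. In C13 that element had a peak only at ranks 57032 and 64937. Cebpe, the C/EBP factor of late granulocyte maturation, ranked 45729 and 44394 in C13, 8259 and 7170 in C10, 4267 and 2782 in C2, and 2734 and 3276 in C18. All 6 other libraries were well apart from C13 at both loci, with C10 strongest at Rhag and weakest of the 6 at Cebpe. The Cebpe element, at chr14:54705340-54707202, lies 4365 bases outside the gene.

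At Tmtc3 and Cep290, whose starts share a peak, the ranks were 6880 and 8218 in C13 and 226 to 930 elsewhere. Fam160a2, with Cnga4, ranked 2435 and 2756 in C13, and 34 and 61 in C18, 136 and 263 in C2, and 334 and 346 in C10. Of the strong loci below that are described here, this was the one at which the C13 libraries ranked highest. The Tmem184a peak, shared with Mafk, a small MAF partner of NFE2, ranked 36991 and 30004 in C13 and 1734 to 4594 elsewhere. Vamp8, a SNARE protein of platelet and mast cell granule release, ranked 18787 and 23306 in C13 and 2076 to 3248 elsewhere. Gda, Rbp2, Gulp1, Zdhhc19 and Jakmip2 ranked 20214 to 66582 in C13 and 205 to 9128 elsewhere.

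Loci above and below differed in where the best peak lay. For C13 replicate 1 it was within 1 kb of a start of the gene in 14.3% of 1697 loci above with a known start, 52.1% of 2764 below and 45.3% of 9714 whose groups overlapped. The median distance was 10411 bases for loci above and 620 for loci below. With the peaks of C10 replicate 1 the medians were 9328 and 1122.5 bases, and with those of C2 replicate 1 they were 8708 and 549.5 bases, so loci above had distal best peaks in these other populations too. Genes above were also longer, with a median of 31.4 kb against 19.6 kb for those below and 21.1 kb over all tested loci.

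**Figure D3:**
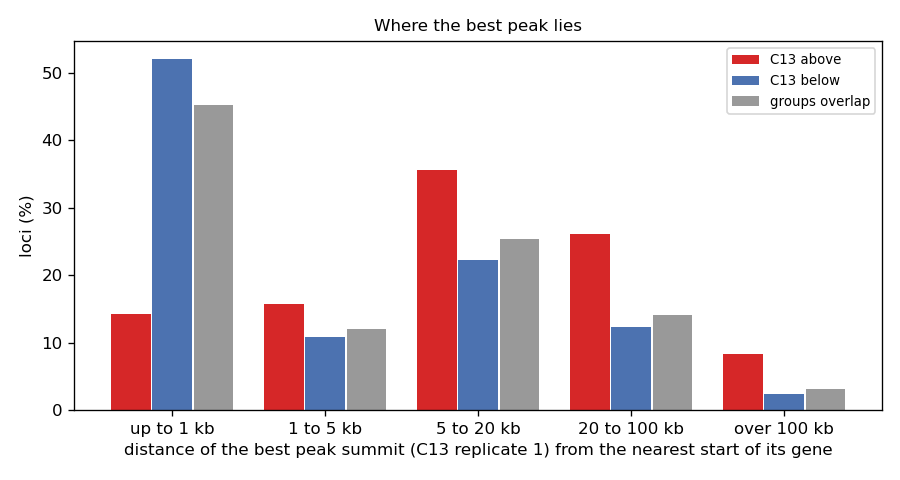
Share of loci (vertical axis, percent) by the distance of the best peak of C13 replicate 1 from the nearest start of its gene (horizontal axis), for loci with C13 above, with C13 below and with overlapping groups. The bars for loci above are highest at 5 to 20 kb (35.7%) and those for loci below at up to 1 kb (52.1%).

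The element of C13 replicate 1's best peak at the 2194 loci above had a peak in all 6 other libraries at 59% and in none of them at 5.70%. At loci whose groups overlapped, taken by the same library's best peak, the shares were 82.8% and 1.40%. At 65 loci above no other library had any peak in the locus. The best peak was often another one in the other populations: it overlapped that of C13 replicate 1 at 95.3% of loci above in C13 replicate 2, 64.7% and 71.3% in C10, 55.9% and 58% in C2, and 40.4% and 36% in C18. At loci below these overlaps were 88% in C13 replicate 2 and 73.3% to 79.2% in the other 6 libraries. Where the groups overlapped they were 91.5% in C13 replicate 2 and 67.5% to 78.3% in the other 6, lowest in C18 there too. Of the loci above, 415 shared the best peak of C13 replicate 1 with another locus above. Of those below, 1537 shared the best peak of C10 replicate 1 with another locus below. Neighbouring genes are thus not independent.

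Gene lists for blood lineages were read against the shares over all loci, 11.9% above and 19.2% below. After scaling these shares were 17.4% and 11.1%, and scaling could hardly remove a call above. Dendritic cell loci were above in 7 of 15 and below in 2, with and without scaling, and their median score difference was 0.19 against -0.35 over all loci. Besides Siglech, the loci above were Flt3, Ccr9, Batf3, Clec9a, Irf4 and Cd209a. Flt3, the receptor for the dendritic cell growth factor FLT3 ligand, ranked 810 and 680 in C13, 4381 and 2896 in C10, 5548 and 3921 in C2, and 9054 and 12513 in C18 (score difference 2.92 ± 0.287, limma adjusted p = 6.68e-05). Ccr9, a chemokine receptor of plasmacytoid dendritic cells and thymus-seeding progenitors, ranked 8539 and 5637 in C13 and 39524 to 64781 elsewhere. Flt3 ranked higher than Ccr9 in every library, and C13 was apart at both. With 50 kb on each side the Ccr9 difference turned to -0.43.

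Batf3 and Irf4, transcription factors of conventional dendritic cells, were closer to the others: Batf3 ranked 7824 and 7559 in C13 against 14486 at best elsewhere, and Irf4 4269 and 3680 against 6104. Clec9a, a receptor of cross-presenting dendritic cells, ranked 1409 and 1355 in C13 and 2444 to 12588 elsewhere. The peak at the start of Cd209a, a lectin of dendritic cells, ranked 22930 and 20592 in C13 and 87028 and 58636 in C10, and the C2 and C18 lists held no peak at this locus. For Irf4 the limma call was lost without C13 replicate 2. The groups did not overlap in any of its 26 alternatives, but many of these could not change that call. Leaving out libraries, or fitting limma to the same scores in another way, cannot make separate groups overlap. The dendritic list was not of 1 direction. Tcf4, the E protein that directs plasmacytoid dendritic cell fate, was below, at 12454 and 11206 in C13 and 3675 to 5113 elsewhere, and so was Xcr1, a chemokine receptor of cross-presenting cells, at 3807 and 3173 against 721 to 2712. Xcr1 turned to a difference of 2.03 with windows of 2 kb at gene starts. Irf8, the factor that dendritic cells and monocytes share, overlapped, with 31670 and 23423 in C13 and 18088 to 38438 elsewhere.

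Lymphoid loci were above in 8 of 26 and below in 5, and after scaling in 9 and 2. Besides Bank1, Cd2, an adhesion receptor of T and NK cells, ranked 3064 and 2191 in C13, 11554 and 9849 in C10, 13927 and 16192 in C2, and 30489 and 30876 in C18. Il7r, the receptor chain of early lymphocyte growth, ranked 5127 and 6658 in C13, 10643 and 10576 in C10, and 17595 to 42494 in C2 and C18. Its best C13 peak lay at the start. Dntt, which adds bases to antigen receptor joints, was at 9019 and 5319 in C13 and 11778 to 33063 elsewhere. After C13, C10 was next at Cd2 and Il7r, and C2 replicate 1 at Dntt. Ebf1, the B cell lineage factor, and Blnk, a B cell adaptor, were above by narrow gaps of 0.38 and 0.35. Ebf1 lost its limma call without either C13 library, and Blnk without any 1 library of C13, C2 or C10. Over all alternatives the adjusted p reached 0.819 for Ebf1 and 0.277 for Blnk.

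Rag1 and Rag2, the antigen receptor recombinases, share a best peak that ranked 5289 and 6416 in C13, 1015 and 1153 in C10, 729 and 1332 in C2, and 3056 and 3377 in C18, so they were below. Cd79a, a B cell receptor chain, was below as well, at 10397 and 9005 against 1504 to 4813. On the scaled scores the groups overlapped for Rag1 and Rag2. With peaks in the gene body alone, Rag1 had a score difference of 1.16 and Cd79a one of 0.93, both with C13 higher.

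Among granulocyte and monocyte loci 3 of 28 were above and 5 below, with and without scaling, and the median difference was -0.13. Csf1r, the receptor of monocyte and macrophage growth, ranked 4626 and 3692 in C13 and 12215 to 34547 elsewhere. Ltf, a late granule protein, ranked 3473 and 2306 in C13 and 5811 to 9269 elsewhere, but Cebpe was below by a much wider gap. Mpo, the granule peroxidase, overlapped at 11695 and 7322 in C13 and 3895 to 22991 elsewhere. Macrophage loci were above in 5 of 16 and below in 4, after scaling in 5 and 1. Marco, a scavenger receptor, ranked 1536 and 2375 in C13 and 6545 to 39871 elsewhere, and Mrc1, the mannose receptor, 3822 and 2599 against 8544 to 13563. Timd4, a receptor for dying cells, had peaks in both C13 lists at 30515 and 34698 and in 3 of the other 6 lists. The macrophage loci below were C1qa, Cd68, Cd163 and Siglec1, with a median gap of 0.209 against 0.865 for those above. Of these, Cd68 ranked 6717 and 3500 in C13 and 393 to 3040 elsewhere. Stroma and endothelium loci were above in 4 of 18 and below in 5. With gene bodies alone the differences at Acss1, Clec9a and Zeb2 turned to -0.49, -0.52 and -0.43, so these calls rest on peaks outside the genes. The lists of macrophage and stromal cells thus had loci in both directions, and what part such cells had in the results was not tested.

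**Figure D4:**
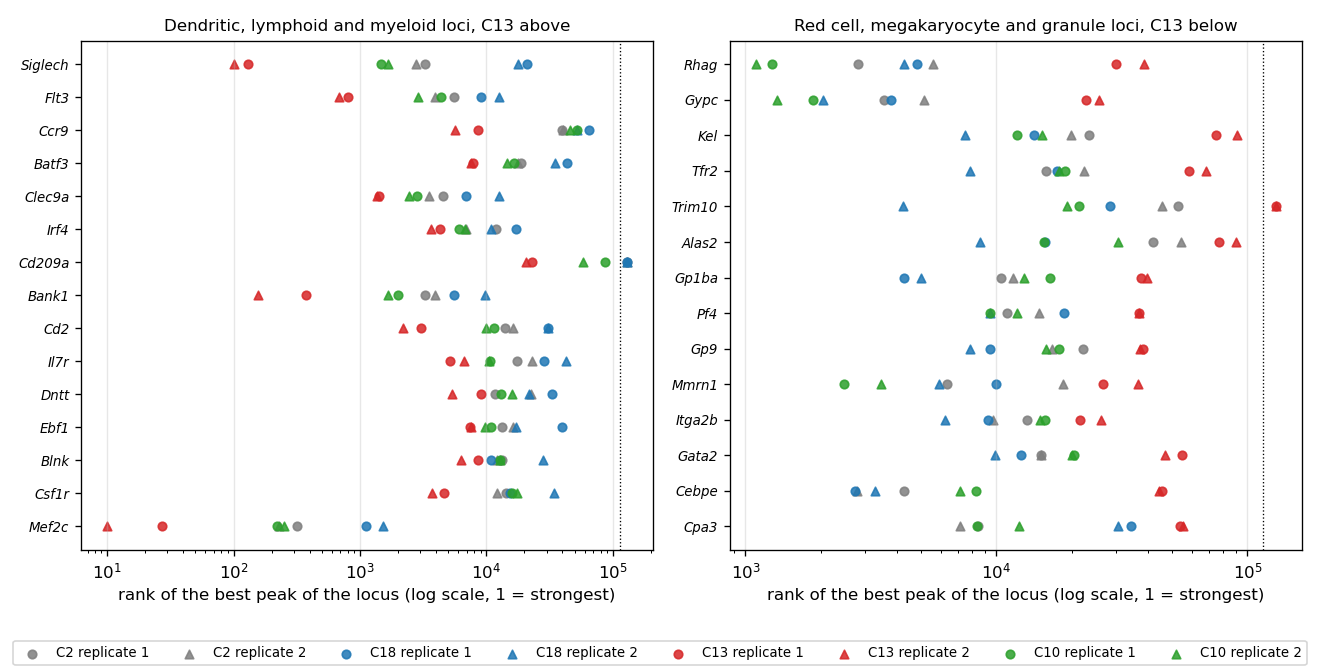
Rank of the best peak (horizontal log axis, 1 = strongest) in each library for 15 dendritic, lymphoid and myeloid loci above and 14 red cell, megakaryocyte, granulocyte and mast cell loci below. Points right of the dotted line mark libraries without a peak at the locus, as both C13 libraries at Trim10 and the C2 and C18 libraries at Cd209a.

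Red cell loci were below in 10 of 32 and above in 1, after scaling in 7 and 2, and their median score difference was -0.71. The median against C18 was -1.54, against C2 -0.55 and against C10 -0.43, beside -0.45, -0.38 and -0.10 over all loci in the same order. Gypc, a glycophorin of the red cell membrane, ranked 22643 and 25659 in C13, 1851 and 1340 in C10, 3552 and 5143 in C2, and 3791 and 2042 in C18. Tfr2, a transferrin receptor that senses iron, ranked 58776 and 68329 in C13 and 7855 to 22273 elsewhere. With Rhag and Kel these loci had gaps of 1.40 to 2.42, wider than the median of 0.24 over all loci below.

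At other red cell loci C18 replicate 2 was strongest and a C2 library was nearest to C13. Alas2, which starts haem synthesis in red cells, ranked 77381 and 90350 in C13, 15531 and 30518 in C10, 41924 and 54309 in C2, and 15601 and 8607 in C18. Trim10, needed for terminal red cell maturation, had no peak in C13 and ranked 4248 to 52971 in the other libraries. In the HOMER peak lists 5 of 32 red cell loci were below and 2 above, where 11.9% of all loci were below and 13.8% above, and Alas2 and Trim10 overlapped there. Aqp1, a water channel of red cells and other tissues, was the locus above, at 1684 and 2176 in C13 and 5383 to 14305 elsewhere, through a peak outside the gene, and turned to -0.55 with gene bodies alone. Gata1 and Klf1, the main factors of red cell genes, overlapped: Gata1 ranked 59291 and 58900 in C13 and 10293 to 63513.5 elsewhere, and Klf1 6741 and 4693 against 2468 to 7642.

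Megakaryocyte loci were below in 10 of 28 and above in 4, after scaling in 8 and 6, with a median difference of -0.61. Itga2b encodes CD41, which C13 cells were sorted to lack, and ranked 21571 and 26042 in C13, 15590 and 14854 in C10, 13288 and 9733 in C2, and 9259 and 6243 in C18. Gp1ba, of the platelet receptor for von Willebrand factor, ranked 37806 and 39691 in C13, 16280 and 12852 in C10, 10449 and 11682 in C2, and 4297 and 5016 in C18. Both loci followed the same order, with C18 strongest and C13 weakest. Pf4, platelet factor 4, ranked 36842 and 37073 in C13 and 9390 to 18528 elsewhere, through a peak that the neighbouring Ppbp locus shares. Mmrn1, a platelet granule protein, ranked 26523 and 36564 in C13, 2468 and 3481 in C10 and 5909 to 18354 in C2 and C18. Gp9, a partner of Gp1ba, ranked 38530 and 37358 in C13 and 7817 to 22121 elsewhere.

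With 50 kb on each side the differences at Gp9 and Pf4 turned to 1.72 and 0.24. By HOMER peaks 5 of 27 loci of this list were below and 5 above, where 11.9% of all loci were below and 13.8% above. Gp9 and Mmrn1 overlapped there. By F-Seq peaks the loci above were Itgb3, which pairs with CD41, Clec1b, P2ry12 and F2rl2, all known from platelets. P2ry12, the platelet ADP receptor, ranked 422 and 229 in C13, 3759 and 3384 in C10, 3826 and 7088 in C2, and 11167 and 21568 in C18, apart from all others. Vwf overlapped, at 5798 and 4541 in C13 and 2120 to 4816 elsewhere. Mast cell, basophil and eosinophil loci were above in 5 of 17 and below in 3, with medians of the gap of 0.083 and 0.55. Those above were Prg2, Prg3, Il5ra, Hdc and Il1rl1, and those below Cpa3, Fcer1a and Ms4a2. Hdc, with the widest gap of those above, ranked 7537 and 7091 in C13 and 10259 to 24569 elsewhere. Cpa3, the mast cell carboxypeptidase, ranked 54114 and 55499 in C13, 8381 and 12259 in C10, 8426 and 7190 in C2, and 34464 and 30639 in C18, so that C13 and C18 were both weak there.

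Transcription factor loci were above in 3 of 30 and below in 6, and after scaling in 7 and 2, while the shares over all loci turned from 11.9% and 19.2% to 17.4% and 11.1%. Mef2c, a MADS box factor of lymphoid and dendritic development, ranked 27 and 10 in C13, 219 and 251 in C10, 319 and 231 in C2, and 1108 and 1510 in C18 (score difference 4.73 ± 0.452, limma adjusted p = 5.97e-05). Its C13 peak was among the 30 strongest of both lists and lay within the gene at chr13:83571541-83572950. Gata2, which acts in stem, mast and megakaryocyte cells, ranked 55027 and 47062 in C13, 20438 and 19989 in C10, 15020 and 15060 in C2, and 12517 and 9875 in C18. Gata2 was the widest of the 6 below, but with 50 kb on each side its difference was 0.087. Zeb2 was above at 1862 and 1549 against 3128 to 6515, through a peak outside the gene. Spi1, which encodes PU.1, ranked 4046 and 4141 in C13 and 3164 to 8273 elsewhere, and was above on the scaled scores but not on those as computed. Ikzf1, the lymphoid factor Ikaros, ranked 1553 and 1170 in C13 and 1504 to 5103 elsewhere, and was above after scaling and in the HOMER lists.

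Stem and multipotent cell loci were above in 2 of 24 and below in 2. Mecom, a stem cell factor, was above with Flt3, at 2806 and 1875 in C13 and 5859 to 14279 elsewhere, but had a difference of -0.36 with windows of 2 kb at gene starts. Of the 7 genes of the sorted surface proteins, Itga2b and Fcgr3 were below and none above. Cd9 and Cd34 overlapped: Cd9 ranked 13826 and 7697 in C13, which lacked the protein, and 9425 to 17681 elsewhere, and Cd34 ranked 1202 and 2571 in C13, 974 and 1504 in C10, 1883 and 1771 in C2, and 9181 and 11989 in C18. Fcgr3, of CD16, was below by a gap of 0.23 and its limma adjusted p was 0.076.

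Housekeeping loci were below in 9 of 20 and above in none, after scaling in 8 and 1, with a median difference of -0.87. Their share below, 45%, was larger than the 31.2% of red cell and 35.7% of megakaryocyte loci. The gaps of housekeeping loci below were narrower, with a median of 0.23 against 0.80 for red cell and 0.53 for megakaryocyte loci. Actb, the cytoplasmic actin, ranked 7360 and 4788 in C13, 4285 and 3909 in C10, 2616 and 2245 in C2, and 1647 and 1533 in C18. Tubb5, a tubulin, ranked 9330 and 7097 in C13, 6881 and 4324 in C10, and 412 to 1543 in C2 and C18. In both, C10 lay next to C13 and away from C2 and C18, as in the share of peaks at gene starts. Non-haematopoietic loci were above in 1 of 18 and below in 3.

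**Figure D5:**
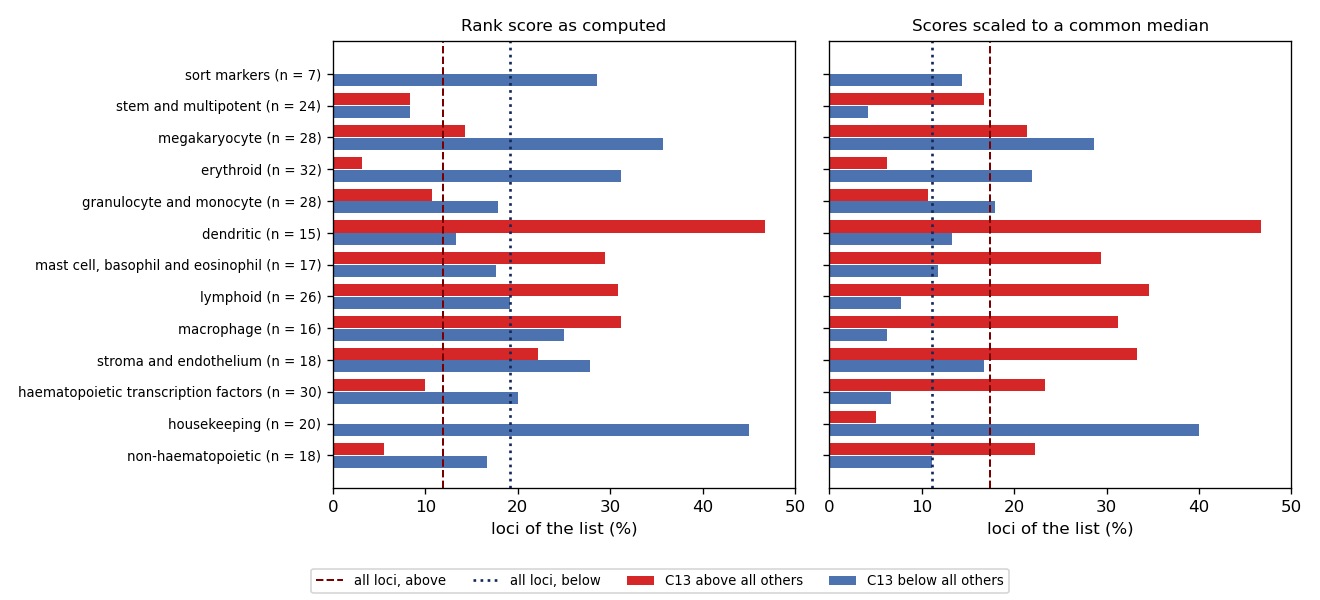
Share of the tested loci of each list with C13 above (red) or below (blue) all other libraries, in percent, on the rank score as computed (left) and on scores scaled to a common median (right). Dashed and dotted lines give the shares over all loci; the dendritic bar for loci above reaches 46.7% in both panels and the housekeeping bar for loci below 45% and 40%.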

How the data were processed

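ATAC-seq peak lists of 8 libraries, 2 per population, were analysed. Per the submitters' processing notes the build is mm10 and the tools include Bowtie 1.0.0 and HOMER 1.0. For F-Seq no version was found in the labels. Each deposited F-Seq list holds 100000 peaks with a signal made from that library's reads. Median F-Seq peak widths were 770 and 800 bases in C13, 762 and 793 in C10, 691 and 721 in C2, and 491 and 618 in C18. The deposited HOMER lists have unlabelled score columns. They hold 252844 and 249132 peaks for C13, 235812 and 260118 for C10, 171712 and 196264 for C2, and 72379 and 83548 for C18. The part of these differences in the ranks was not tested. Signals and scores served to order the peaks of 1 list and were not compared between lists. Read counts are not part of the lists, so the depth is unknown and counting error could not be given.

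Loci came from RefSeq genes on GRCm38.p6, which mm10 is built on, and starts, for 17492 of 21887 genes, from the promoter table of the same assembly. Strand and exons were not used. The score was log2 of (peaks in the list + 1) over the rank of the best peak, ties at their mean rank. limma 3.58.1 (R 4.3.3) was fitted to all 18458 tested loci with 4 group means and eBayes with trend, checked on simulated data. The HOMER alternative used the 72379 strongest peaks of each list, all 150 bases wide.

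Named loci were the 12 above and 12 below with the largest gap among those ranked within 10000 on the higher side, the 6 above and 6 below with the largest gap at any rank, each list member called, and the sort markers. A shared peak counted once. Some loci that this rule names are not reported here. The members, the 13 gene lists and the tests were chosen with earlier results of these data known, and scaling, peaks at or away from starts alone, and C13 with C10 alone were added after seeing the data. Not every same-numbered pair of libraries deviated together, so replicate numbers were not used to pair libraries.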

Additional observations from a re-analysis of the deposited data

How the results depend on the processing

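The count of loci above stayed within 1.5 times 2194 except with windows of 2 kb at gene starts (867) and with C13 and C10 libraries alone (4535). Loci below numbered 1994 in the HOMER lists, 2047 on scaled scores, 1043 with peaks at gene starts ranked alone and 6296 with C13 and C10 libraries alone. Leaving out each library in turn gave 2314 to 2800 loci above and 3651 to 5612 below, the highest without C13 replicate 2. limma called 747 loci higher and 3512 lower with windows of 2 kb, 910 and 306 in the fit with 2 groups, 3630 and 2809 on scaled scores, and 1261 and 1292 with peaks at gene starts ranked alone. It called 2938 lower in the HOMER lists, 3142 with nearest starts, 3097 with peaks away from starts ranked alone and 1883 with C13 and C10 libraries alone. Leaving out each library gave 1264 to 2624 loci higher and 2139 to 6353 lower. With fewer libraries the rule for loci above and below can hardly do other than keep or add calls, since fewer libraries must be apart. The cause of the other moves was not tested. Some settings also held fewer loci, as 12487 with windows of 2 kb, or fewer libraries.

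Same-numbered libraries had correlations of deviations from 0.002 to 0.40, over 0.1 in 4 of 6 pairs of populations. With the replicate block limma called 2422 loci higher and 5895 lower, and 92 of 93 loci checked singly, most of them described above, kept their limma call or its absence. Fcgr3 gained it, with an adjusted p of 0.0384.

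Of these 93 loci, 91 were called in the main comparison by limma and 14 of them lost the call in no alternative. Differences changed sign only in the settings that follow, which alter which peaks a locus can take. With gene bodies alone the score differences were Ctso -0.40, Acss1 -0.49, Tubgcp5 -1.05, Clec9a -0.52, Zeb2 -0.43, Aqp1 -0.55, Rag1 1.16, Cd79a 0.93. With 50 kb on each side the score differences were Ccr9 -0.43, Car2 0.44, Gp9 1.72, Pf4 0.24, Gata2 0.087. With windows of 2 kb at gene starts the score differences were Ctso -0.40, Acss1 -0.018, Rasgrp1 -0.15, Ror1 -0.39, Tubgcp5 -1.05, Zeb2 -0.33, Ebf1 -0.11, Mrc1 -0.15, Mecom -0.36, Aqp1 -0.55, Xcr1 2.03, Rag1 1.16. With each peak given to the nearest gene start the score differences were Ror1 -0.61, Zeb2 -0.49, Ebf1 -0.11, Xcr1 1.55, Rag1 0.94. With the mean of the 3 best peaks the score differences were Aqp1 -0.049, Myc 0.23. With peaks at gene starts ranked alone the score differences were Tep1 -0.14, Tubgcp5 -0.42, Mef2c -0.18, Mrc1 -0.018, Mecom -0.080. With peaks away from gene starts ranked alone the score differences were Bank1 -0.86, Tmtc3 0.00015, Traf3ip3 -0.48, Xcr1 1.85, Rag2 0.14. Depth limits are unknown, since the lists hold no counts.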

Other observations

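Endothelial genes were among the wide calls above. Cdh5, the cadherin of endothelial junctions, ranked 1720 and 1135 in C13, 11716 and 7605 in C10, 18036 and 14557 in C2, and 32019 and 27336 in C18, through a peak within the gene. Kdr, a receptor of vascular growth factor, ranked 2921 and 2017 in C13 and 9292 to 17502 elsewhere. Other loci of the list (Tek, Col1a2, Sp7, Runx2 and Plvap) were below by gaps of at most 0.31.

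Olfr65, an olfactory receptor gene, was below with a wide gap of 2.95. Its best peak ranked 82807 in C13 replicate 1, C13 replicate 2 had none, and the others ranked it 4716 to 10733. The element at chr7:103909367-103911204 overlapped no peak of either C13 list and lies 56160 bases from Hbb-y, the nearest gene of the beta-globin cluster. The adult globin locus Hbb-bs overlapped, at 23173 and 29739 in C13 and 5089 to 43779 elsewhere. AA986860 was below with ranks of 86061 and 83735 in C13 and 3360 to 11051 elsewhere.

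The HOMER files of C13 and C10 are in falling order of score and those of C2 and C18 in genome order. The sources used here do not say whether the pairs of populations were processed apart.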
